A study of Mus musculus with 8 samples.

Results

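Peptide presentation on major histocompatibility complex (MHC) class I was described here through 10 genes that make, carry or display the peptides, in mouse colon epithelium after a dose of the food carcinogen PhIP. The genes were B2m, H2-K1, H2-D1, Tap1, Tap2, Tapbp, Psmb8, Psmb9, Psmb10 and Nlrc5. Their probes were those mouse probes of the array whose RefSeq accession belongs to one of these genes. That gave 12 of 35078 mouse probes, covering 9 of the 10 genes, out of 15597 named genes on the array. No matched probe was found for Nlrc5. The H2-D1 probe was too dim to test, so 8 genes were tested.

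PhIP is a heterocyclic amine that forms when meat is cooked at high heat. The 5 PhIP mice received it once by gavage at 200 mg/kg body weight, and the 3 PBS mice received phosphate-buffered saline. All 8 were male hCYP1A mice on a C57BL/6 background, which carry humanized CYP1A, were fed AIN93M diet and were dosed at 8 weeks of age. Colon crypt epithelium was scraped off with a glass slide 24 hours later, and the RNA of each mouse was read on 1 array. The sources used here do not describe how the human genes were placed in the genome.

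MHC class I molecules show short peptides from inside the cell to CD8 T cells. Proteasomes cut the peptides, and the interferon-induced subunits Psmb8, Psmb9 and Psmb10 take the place of the standard catalytic subunits to form the immunoproteasome. The Tap1 and Tap2 transporter moves the peptides into the endoplasmic reticulum, where tapasin (Tapbp) holds the transporter beside the empty class I molecule. That molecule is a heavy chain such as H2-K1 or H2-D1 paired with the light chain B2m. Nlrc5 is a transactivator that acts at the promoters of class I genes, and interferon gamma raises the whole set.

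Most of the genes lie together. By RefSeq annotation of assembly GRCm38.p6, 7 of the 10 are on chromosome 17, and Psmb9, Tap1, Psmb8 and Tap2 follow each other at chr17:34182030-34187330, chr17:34187556-34197225, chr17:34198195-34201454 and chr17:34204479-34216321. Tapbp lies at chr17:33919478-33929290, H2-K1 at chr17:33996012-34000619 and H2-D1 at chr17:35263094-35267497. B2m lies apart at chr2:122147687-122153082, as do Psmb10 at chr8:105935728-105938392 and Nlrc5 at chr8:94434335-94527272. The starts of Tap1 and Psmb9 are 226 bases apart on opposite strands, so 1 stretch of DNA lies upstream of both.

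Promoters from RefSeq (GRCm38.p6), from 250 bases before to 50 after a start, were matched for 8 of the 10 genes, with 2 starts for H2-K1. Those of B2m, H2-K1 and H2-D1 are printed because they let the light chain and the heavy chains be compared, and that of Tap1 because it reaches to the start of Psmb9. The B2m promoter is chr2:122147437-122147736 on the plus strand, the H2-K1 promoter chr17:34000298-34000597 on the minus strand, the H2-D1 promoter chr17:35262844-35263143 on the plus strand and the Tap1 promoter chr17:34187306-34187605 on the plus strand. Capitals mark the letters TGACG or CCAAT on either strand, which then read CGTCA or ATTGG, and in B2m also an interferon response element, searched as GAAA, any 2 bases, GAAA.
B2m: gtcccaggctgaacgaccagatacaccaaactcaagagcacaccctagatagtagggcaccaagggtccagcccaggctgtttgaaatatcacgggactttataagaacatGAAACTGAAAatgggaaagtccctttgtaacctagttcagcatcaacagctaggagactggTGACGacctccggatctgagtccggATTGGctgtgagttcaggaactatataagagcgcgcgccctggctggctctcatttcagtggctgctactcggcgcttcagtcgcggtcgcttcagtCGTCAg
H2-K1: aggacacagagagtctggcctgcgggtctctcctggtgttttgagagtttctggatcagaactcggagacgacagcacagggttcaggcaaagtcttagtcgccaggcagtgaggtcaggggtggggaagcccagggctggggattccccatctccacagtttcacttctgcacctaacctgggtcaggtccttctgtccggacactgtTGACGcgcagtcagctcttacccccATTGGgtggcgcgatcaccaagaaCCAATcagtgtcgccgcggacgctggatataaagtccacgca
H2-D1: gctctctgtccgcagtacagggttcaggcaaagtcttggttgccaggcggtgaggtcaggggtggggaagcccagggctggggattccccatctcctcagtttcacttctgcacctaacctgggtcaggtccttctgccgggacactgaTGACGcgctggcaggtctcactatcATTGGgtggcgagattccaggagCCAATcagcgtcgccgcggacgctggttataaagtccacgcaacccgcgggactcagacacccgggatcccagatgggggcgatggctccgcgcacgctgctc
Tap1: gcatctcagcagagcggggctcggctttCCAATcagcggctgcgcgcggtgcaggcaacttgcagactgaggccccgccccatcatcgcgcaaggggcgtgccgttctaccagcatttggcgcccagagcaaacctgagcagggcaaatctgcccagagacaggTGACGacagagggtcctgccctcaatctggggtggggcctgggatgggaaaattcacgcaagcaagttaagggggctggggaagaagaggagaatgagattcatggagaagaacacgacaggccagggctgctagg

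In B2m, H2-K1 and H2-D1 the letters TGACG were followed by ATTGG with 20 bases between them, a spacing noticed on looking at these promoters. That layout was in 31 of 32851 mouse promoters, or 0.0944%, and in 4 of the 9 promoters of the members. As the spacing was taken from these promoters, the counts are a description and not a test. Singly, CCAAT was in 7 of the 9 and in 37.4% of all promoters, and TGACG in 6 of the 9 and in 20.8% of all. The 9 are not separate stretches of DNA. Both promoters of H2-K1 overlap, as do those of Tap1 and Psmb9, and the same bases count once in each. The printed promoters of H2-K1 and H2-D1 also share long runs of letters, so they are not separate cases of the layout. The letters searched for as the interferon response element were found in B2m alone of the members and in 3.44% of all promoters. Other spellings of that element were not searched, so its absence from H2-K1, H2-D1 or the other members is not shown. TTCNNNGAA, the letters of a gamma-activated site, was found in Psmb8 alone of the members and in 8.3% of all. These motifs were searched on both strands, and a match describes the letters and not the binding of a factor.

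The array of PhIP mouse 1 stood apart and is called the dim array. Its photomultiplier gain was 700 where every other scan had 650, the scanner software found 7501 probes on it against 18861 to 20040, and its 75th percentile of raw intensity was 21 against 220 to 289. Its log2 values had a median Pearson correlation of 0.766 with those of the other arrays. Results are therefore given with all 8 arrays and with 7, leaving the dim array out. The arrays of PBS mice 1 and 2 came from a different range of slide numbers than all other arrays, so only PBS mouse 3 shares a slide range with the PhIP mice. The authors' matrix lacks the dim array: its 5 PhIP columns equal the scans of PhIP mice 2 to 5, the first of them placed under mouse 1, plus 1 column that matched no scan used here. The labels say that the mice were separate animals. With 1 array per mouse, the spread between arrays holds both that between mice and that of the measurement, which cannot be told apart.

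No gene of the set differed between PhIP and PBS mice past an adjusted p of 0.05 (limma, Benjamini-Hochberg over all 15854 features). Higher and lower calls were 0 of 8 and 0 of 8, against 0.0126% and 0% of all features, and the smallest adjusted p among the 8 was 0.837. At an unadjusted p under 0.05, 1 of the 8 (Psmb8) was higher and 0 were lower, against 1.44% and 1.63% of all features. Without the dim array, 0 of the 8 were again called in either direction, against 0.0316% higher and 0% lower of 15842 features, and the smallest adjusted p was 0.415. There 3 of the 8 (Psmb8, Psmb10 and Tap1) were higher at an unadjusted p under 0.05, and 0 lower, against 5.81% and 3.46% of all features. The log2 fold change was above 0 for 5 of 8 genes with 8 arrays, with a median of 0.28, against 50.8% of all features and a median of 0.01. It was above 0 for 6 of 8 with 7 arrays, with a median of 0.21, against 55.3% and 0.03. No member lay below all PBS mice in all PhIP mice of either fit, as 2.08% of all features did with 8 arrays and 2.9% with 7. At shares this low, 0 of 8 says little about the set.

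The authors' matrix was put through the same normalization and read for the same genes. Of the 8 genes 0 were called higher and 0 lower, against 0.0568% and 0.0126% of all features, and the smallest adjusted p was 0.282 (limma, Psmb8). At an unadjusted p under 0.05, 3 were higher and 0 lower, against 6.73% and 4.24% of all features. Tap1 was the 1 gene of the 8 whose groups did not overlap with PhIP higher, against 4.73% of all features, and 0 were lower without overlap, against 2.34%. The fold change was above 0 for 7 of 8, with a median of 0.19, against 55.3% of all features and a median of 0.03, and these columns share 7 arrays with the scans.

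All values below are log2 of quantile-normalized intensity, and fold changes are PhIP over PBS on that scale. Because the tissue was measured in bulk, fewer cells of a type and less RNA per cell cannot be told apart.

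**Figure D1:**
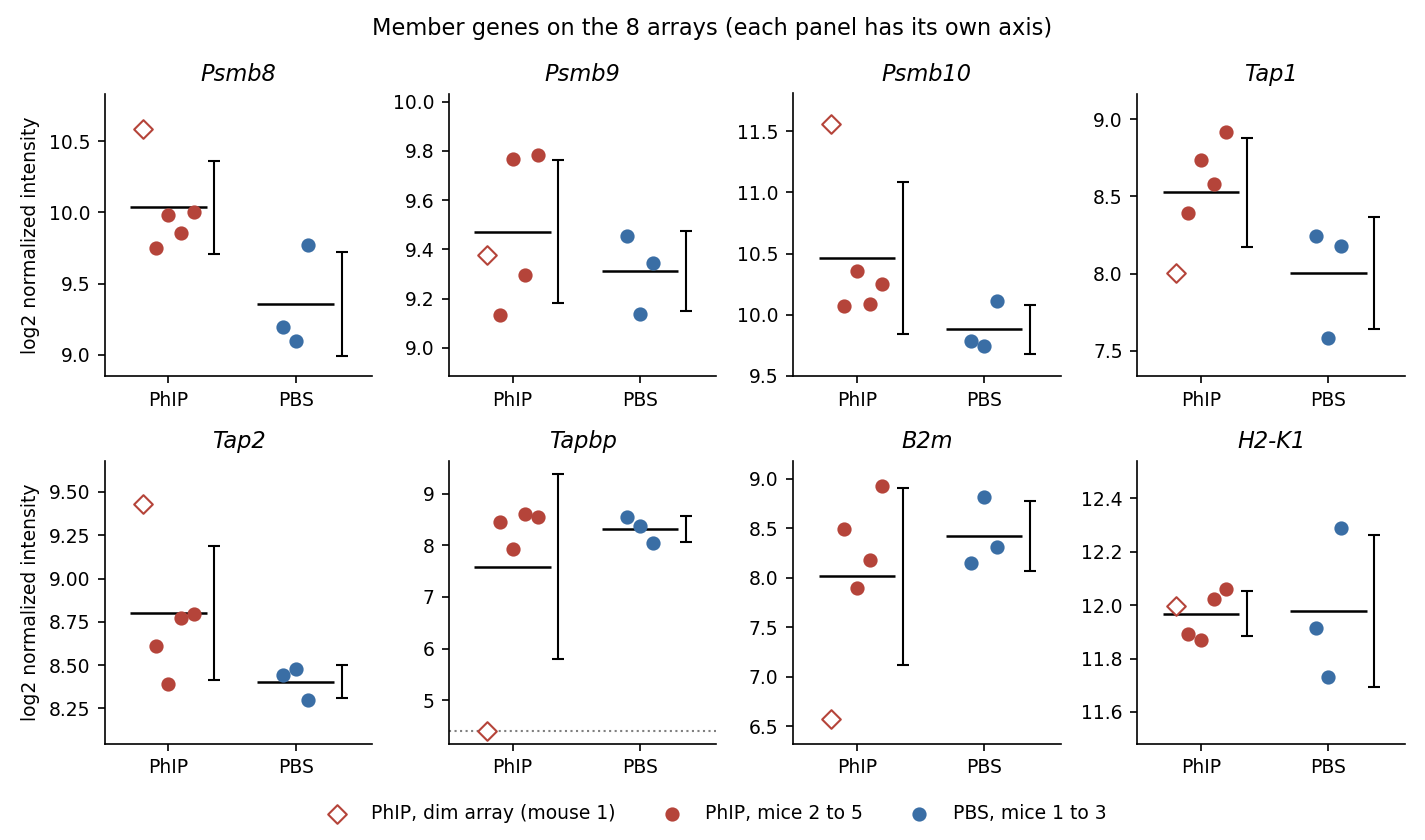
Log2 normalized intensity (y axis, 1 scale per gene) of the 8 tested genes in PhIP mice (left, n = 5) and PBS mice (right, n = 3); points are mice, long bars group means, whiskers ± SD, the open diamond is the dim array and the dotted line the floor of 4.41. The dim array is the highest PhIP value for Psmb8, Psmb10 and Tap2 and the lowest for B2m, Tap1 and Tapbp.

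Among the immunoproteasome subunits, Psmb8 (LMP7, which supplies a chymotrypsin-like site) was the one with the lowest unadjusted p. Its brightest probe read 10.59 on the dim array and 9.75, 9.98, 9.85 and 10.003 in the other PhIP mice, against 9.20, 9.10 and 9.77 in the PBS mice. PBS mouse 3 lay inside the PhIP range and PBS mice 1 and 2 below it. PhIP over PBS, this came to 0.68 ± 0.24 on the log2 scale (SE; adjusted p = 0.837 by limma) with 8 arrays and 0.54 ± 0.17 (adjusted p = 0.416 by limma) with 7. With the slide range as a block, it was 0.26 ± 0.32 with 8 arrays and 0.13 ± 0.13 with 7. The arrays of PhIP mice 1 and 3 and of PBS mice 1 and 2 are marked as re-dipped in their deposited names. Within these, which include the dim array, the fold change was 1.14, and within the others, which hold 1 PBS mouse, 0.10. Among the PBS mice, re-dipping and slide range split the arrays in the same way, so the 2 cannot be told apart there. The other Psmb8 probes are dimmer: on one, the dim array was at the floor and the fold change was -0.41 ± 0.87 with 8 arrays and 0.32 ± 0.16 with 7. On the other it was 0.13 ± 0.28 with 8 arrays and 0.29 ± 0.15 with 7. With 7 arrays the 3 probes thus had the same sign, and their sizes differed.

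Psmb10 (MECL-1, which supplies a trypsin-like site) has 2 probes, both with fold changes above 0. The brighter one read 11.56 on the dim array and 10.07, 10.36, 10.09 and 10.25 in the other PhIP mice, against 9.79, 9.75 and 10.11 in the PBS mice. The difference came to a log2 fold change of 0.58 ± 0.34 (adjusted p = 0.837 by limma) with 8 arrays and 0.31 ± 0.12 (adjusted p = 0.508 by limma) with 7. PBS mouse 3 was again the one inside the PhIP range. The dimmer probe read 11.27, 9.85, 10.19, 9.78 and 9.90 in the PhIP mice, against 8.92, 9.17 and 9.76 in the PBS mice, so its groups did not overlap, as held for 3.67% of all features with PhIP higher. PhIP mouse 4 and PBS mouse 3, the nearest values, were 9.78 and 9.76. The fold change of the dimmer probe was 0.92 ± 0.37 with 8 arrays and 0.64 ± 0.20 with 7. With the slide range as a block, the brighter probe gave 0.35 ± 0.54 with 8 arrays and 0.08 ± 0.14 with 7. Within the re-dipped arrays, which include the dim array at 11.56, the brighter probe gave 1.19, and within the others 0.02.

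Psmb9 (LMP2, which replaces the caspase-like subunit) overlapped between the groups throughout. It read 9.38, 9.13, 9.77, 9.30 and 9.78 in the PhIP mice, against 9.46, 9.14 and 9.34 in the PBS mice. PhIP mice 3 and 5 were above all PBS mice and PhIP mice 2 and 4 below PBS mouse 3. Its log2 fold change was 0.16 ± 0.20 with 8 arrays and 0.18 ± 0.18 with 7.

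Of the transporter genes, Tap1 had the larger fold change. It read 8.00 on the dim array, where the spot was not found, and 8.39, 8.74, 8.58 and 8.92 in the other PhIP mice, against 8.24, 7.59 and 8.18 in the PBS mice. The 4 PhIP mice other than the dim array were above all 3 PBS mice, and the dim array was inside the PBS range. Its log2 fold change was 0.52 ± 0.27 (adjusted p = 0.837 by limma) with 8 arrays and 0.65 ± 0.20 (adjusted p = 0.415 by limma) with 7, where the groups did not overlap, as for 5.98% of all features with PhIP higher. With the slide range as a block, it was 0.35 ± 0.43 with 8 arrays and 0.47 ± 0.30 with 7. Within the re-dipped arrays it was 0.46, and within the others 0.45. Psmb9, which shares the stretch of DNA between their starts with Tap1, had the smaller fold changes given above, and the difference between the genes was not tested.

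Tap2, the partner of Tap1, read 9.43 on the dim array and 8.61, 8.39, 8.77 and 8.80 in the other PhIP mice, against 8.44, 8.48 and 8.30 in the PBS mice. PhIP mouse 3 was inside the PBS range, and the other PhIP mice were above it. Tap2 had a log2 fold change of 0.39 ± 0.25 with 8 arrays and 0.23 ± 0.13 with 7. For Tapbp, the dim array was at the floor of 4.41, where the spot was not found, and the other PhIP mice read 8.45, 7.92, 8.60 and 8.55, against 8.55, 8.37 and 8.04 in the PBS mice. The log2 fold change of Tapbp was -0.73 ± 0.94 with 8 arrays, of which 1 was at the floor, and 0.06 ± 0.20 with 7.

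The class I molecule itself showed no shift beyond the spread between arrays on its gene probes. H2-K1, the K heavy chain, read 11.996, 11.89, 11.87, 12.02 and 12.06 in the PhIP mice, against 11.92, 11.73 and 12.29 in the PBS mice. All 5 PhIP mice lay inside the PBS range. The log2 fold change was -0.01 ± 0.15 with 8 arrays and -0.02 ± 0.13 with 7. Within the slide range that the groups share, it was -0.33 ± 0.10 with 7 arrays, since PBS mouse 3 was the highest of all. Class I heavy chains are close relatives in sequence, and signal from related genes on this probe cannot be told apart.

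B2m, the light chain, read 6.57 on the dim array, where the spot was not found, and 8.49, 7.89, 8.18 and 8.93 in the other PhIP mice, against 8.15, 8.82 and 8.31 in the PBS mice. PhIP mouse 5 was above all PBS mice, and PhIP mouse 3 and the dim array were below them. B2m had a log2 fold change of -0.41 ± 0.50 with 8 arrays and -0.05 ± 0.27 with 7. The H2-D1 probe, for the D heavy chain, had raw intensities of 9, 13, 9, 20 and 3 in the PhIP mice, against 10, 12 and 9 in the PBS mice. The scanner software found it on 0 of 5 PhIP arrays and 1 of 3 PBS arrays, so it gives no level to compare.

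**Figure D2:**
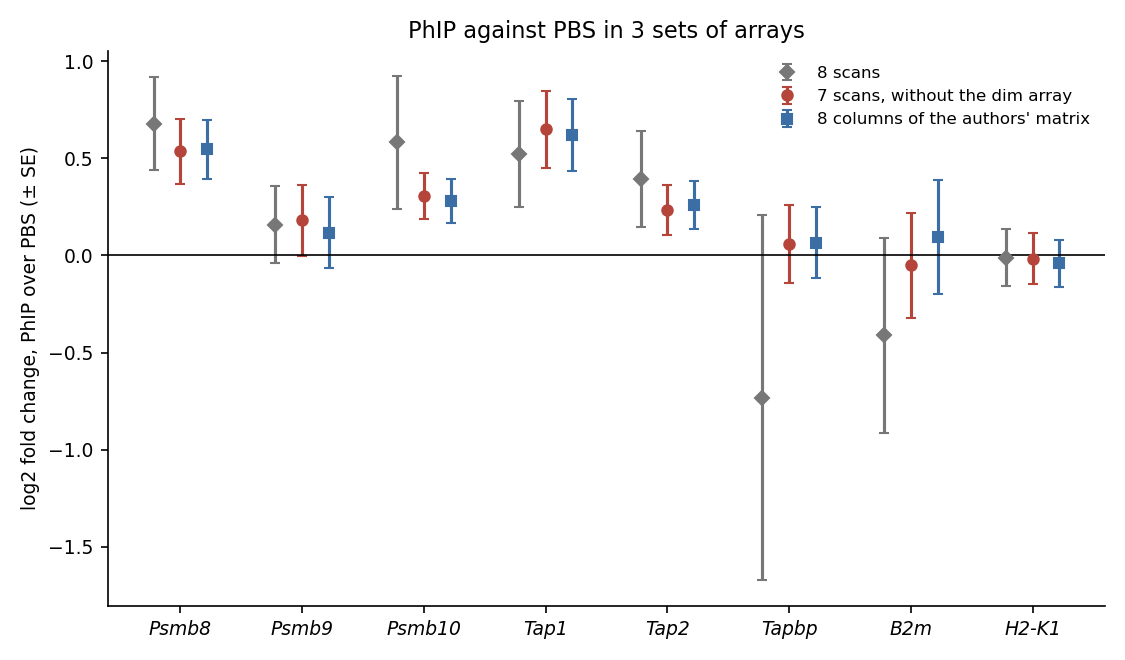
Log2 fold change of PhIP over PBS (y axis, ± SE) for the 8 tested genes with 8 scans (grey diamonds), 7 scans without the dim array (red circles) and the 8 columns of the authors' matrix put through the same normalization (blue squares). Psmb8, Psmb10, Psmb9, Tap1 and Tap2 are above 0 in all 3 sets, H2-K1 stays within 0.05 of 0, and Tapbp and B2m differ in sign between sets.

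The array also carries 76 spots with the B2m accession that are not mouse gene probes, whose purpose the sources used here do not state. They are not part of the probe rule and were looked at after the gene probes. With 8 arrays, 37 of them were kept: they were found on every array, saturated on none and above a lower limit of raw intensity. The lowest raw value among the 37 was 119 on the dim array. With 7 arrays, 45 were found on every array and saturated on none, without that limit. Of the 76, 20 were saturated on some array and 5 were found on none. Over the 37 spots, the median log2 difference from the PBS mean was -2.79 on the dim array and 0.04, -0.08, -0.06 and -0.01 in the other PhIP mice, against 0.07, 0.05 and -0.14 in the PBS mice. Apart from the dim array, the groups overlapped. The raw medians show the same: 1469 on the dim array and 36280 to 45792 on the other PhIP arrays, against 34429 to 41165 on the PBS arrays. The brightest kept spot on each array but the dim one read 55493 to 64684, near the 65000 counted as saturated. As saturated spots were left out, a higher level in a group may not show in these spots. The B2m gene probe read 274 to 531 raw on the same arrays. The difference of array medians over the 45 spots with 7 arrays was -0.01 (exact permutation test over arrays, 2-sided, p = 0.971, smallest possible 0.0286). With 8 arrays it was -0.58 over the 37 spots (exact permutation test, 2-sided, p = 0.589, smallest possible 0.0179).

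**Figure D3:**
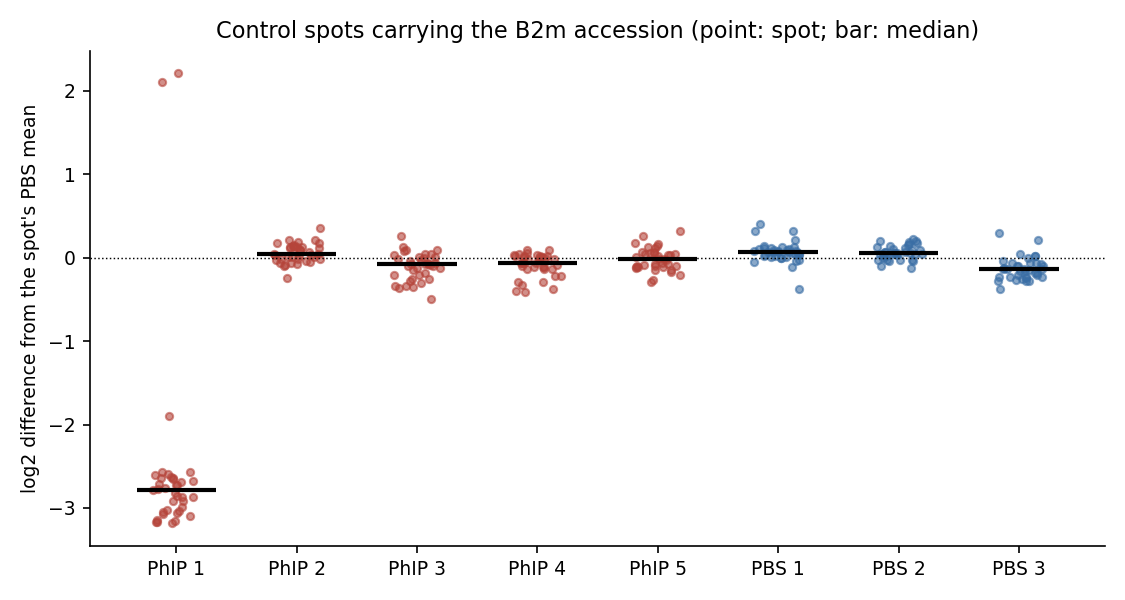
Log2 difference of each of 37 spots carrying the B2m accession from its PBS mean (y axis) on the 5 PhIP arrays (left) and the 3 PBS arrays (right); points are spots and bars medians. The medians of PhIP 2 to 5 lie between -0.08 and 0.04 and those of the PBS arrays between -0.14 and 0.07, and PhIP 1, the dim array, is at -2.79.

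The neighbouring steps of the pathway were read from the same fits, and 0 genes of any list passed in either direction with 8 or 7 arrays (limma, adjusted over all features). At an unadjusted p under 0.05 with 8 arrays, the 5 lists of proteasome, loading, other class I and signalling genes held 0 higher genes and 1 lower one, H2-Q8. With 7 arrays, 4 proteasome regulators or assembly factors were higher at that level, and 1 constitutive subunit, 2 loading factors, 2 other class I genes and 2 signalling genes were lower, against 5.81% higher and 3.46% lower of all features. A fold change above 0 was held by 50.8% of all features with 8 arrays and 55.3% with 7. The constitutive proteasome was tested for 14 of 14 subunits, of which 4 had a fold change above 0 with 8 arrays (median -0.08) and 7 with 7 arrays (median 0.00). Of the standard catalytic subunits, Psmb5, which Psmb8 replaces, read 10.101, 12.01, 12.21, 12.05 and 12.12 in the PhIP mice, against 12.42, 12.30 and 12.30 in the PBS mice. All PhIP mice were below all PBS mice, as for 2.08% of all features, with a log2 fold change of -0.64 ± 0.47 with 8 arrays and -0.24 ± 0.07 (adjusted p = 0.412 by limma) with 7. Psmb6, which Psmb9 replaces, had -0.24 ± 0.52 and 0.13 ± 0.26 with 8 and 7 arrays, and Psmb7, which Psmb10 replaces, -0.44 ± 0.44 and -0.08 ± 0.15.

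Proteasome regulators and assembly factors were tested for 17 of 19 genes, of which 8 were above 0 with 8 arrays (median -0.01) and 14 with 7 (median 0.10). By the rule of smallest p, Psmc4, an ATPase of the 19S cap, had a log2 fold change of 0.36 ± 0.21 with 8 arrays and 0.21 ± 0.10 with 7, and the assembly chaperone Psmg3 0.63 ± 0.41 and 0.59 ± 0.41. In the other direction with 8 arrays, the activator Psme4 had -1.01 ± 1.23 and 0.06 ± 0.13, and the ATPase Psmc6 -0.64 ± 0.71 and -0.07 ± 0.20. Psme1 and Psme2, the subunits of the interferon-inducible PA28 activator that caps the proteasome, were picked out after their values were seen. Psme1 read 11.20 on the dim array and 11.91, 12.37, 12.16 and 12.41 in the other PhIP mice, against 11.73, 11.84 and 11.90 in the PBS mice. Psme2 was down at the floor in PhIP mouse 1 (the dim array) and read 7.27, 7.35, 7.43 and 7.35 in the other PhIP mice, against 6.82, 7.11 and 6.86 in the PBS mice. Both were above all PBS mice in the 4 PhIP mice other than the dim array, as for 5.98% of all features with PhIP higher. Their log2 fold changes were 0.38 ± 0.13 and 0.42 ± 0.14 with 7 arrays (adjusted p = 0.433 for both by limma) and 0.19 ± 0.27 and -0.17 ± 0.71 with 8. Psmc5 and Psmd4, outside PA28, were also higher at an unadjusted p under 0.05 with 7 arrays. They had 0.20 ± 0.08 and 0.21 ± 0.09 with 7 arrays and 0.43 ± 0.29 and 0.45 ± 0.30 with 8. For both, all PhIP mice were above all PBS mice, as for 3.67% of all features with 8 arrays and 5.98% with 7.

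Of the peptide loading and trimming factors, 1 of 13 tested was above 0 with 8 arrays (median -0.37) and 2 of 13 with 7 (median -0.17). Pdia3, the disulphide isomerase ERp57 of the loading complex, had a log2 fold change of -0.75 ± 0.51 with 8 arrays and -0.34 ± 0.18 with 7. The endoplasmic reticulum chaperone Hspa5 had -0.59 ± 0.45 and -0.23 ± 0.18, and the cytosolic peptidase Tpp2 0.09 ± 0.17 and 0.03 ± 0.13. Other MHC class I genes were tested for 15 of 32, with 3 above 0 with 8 arrays (median -0.24) and 9 with 7 (median 0.03). H2-Q8, a nonclassical class I gene, had -0.82 ± 0.33 with 8 arrays and -0.68 ± 0.27 with 7, and H2-T10 had 0.28 ± 0.17 and 0.22 ± 0.14.

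Of the regulators and interferon signalling genes, 9 of 27 tested were above 0 with 8 arrays (median -0.19) and 17 of 27 with 7 (median 0.07). Irf1, a transcription factor for this pathway, had a log2 fold change of -0.07 ± 0.24 with 8 arrays and 0.10 ± 0.12 with 7, and Rfx5, a subunit of the RFX complex that binds MHC promoters, -0.36 ± 0.54 and 0.06 ± 0.17. The receptor kinase Jak1 was below all PBS mice in all PhIP mice, as for 2.08% of all features with 8 arrays and 2.9% with 7. Its log2 fold change was -0.45 ± 0.29 with 8 arrays and -0.22 ± 0.09 (adjusted p = 0.532 by limma) with 7. The probe of Ifng, the gene of interferon gamma, was found on no array. Interferon-stimulated genes were tested for 27 of 35, with 17 above 0 with 8 arrays (median 0.17) and 21 with 7 (median 0.25), against 50.8% and 55.3% of all features. Of the 27, 2 and 5 were higher at an unadjusted p under 0.05, against 1.44% and 5.81% of all features. Oasl1, an oligoadenylate synthetase-like gene, was higher in all PhIP mice than in all PBS mice, as were 3.67% of all features with 8 arrays and 5.98% with 7, with 1.13 ± 0.37 (adjusted p = 0.837 by limma) and 0.88 ± 0.20 (adjusted p = 0.286 by limma). Irf7, a transcription factor of the type I interferon response, had 0.75 ± 0.28 and 0.67 ± 0.27. In the other direction, Gbp3 had -0.74 ± 0.57 with 8 arrays and -0.31 ± 0.24 with 7, and Gbp5 -0.34 ± 0.32 and -0.23 ± 0.32. The dim array was at the floor for both Gbp genes.

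MHC class II genes, which present peptides from outside the cell, were below 0 in 8 of 8 tested with 8 arrays (median -0.77) and with 7 (median -0.63). Of all features, 50.8% were above 0 with 8 arrays and 55.3% with 7. Cd74, the invariant chain, had a log2 fold change of -1.12 ± 0.27 with 8 arrays and -0.97 ± 0.21 (adjusted p = 0.278 by limma) with 7. H2-Ab1, a class II beta chain, had -0.89 ± 0.20 and -0.81 ± 0.18 (adjusted p = 0.276 by limma). For both, all PhIP mice were below all PBS mice, as for 2.08% of all features with 8 arrays and 2.9% with 7. Class II and class I genes were not tested against each other.

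**Figure D4:**
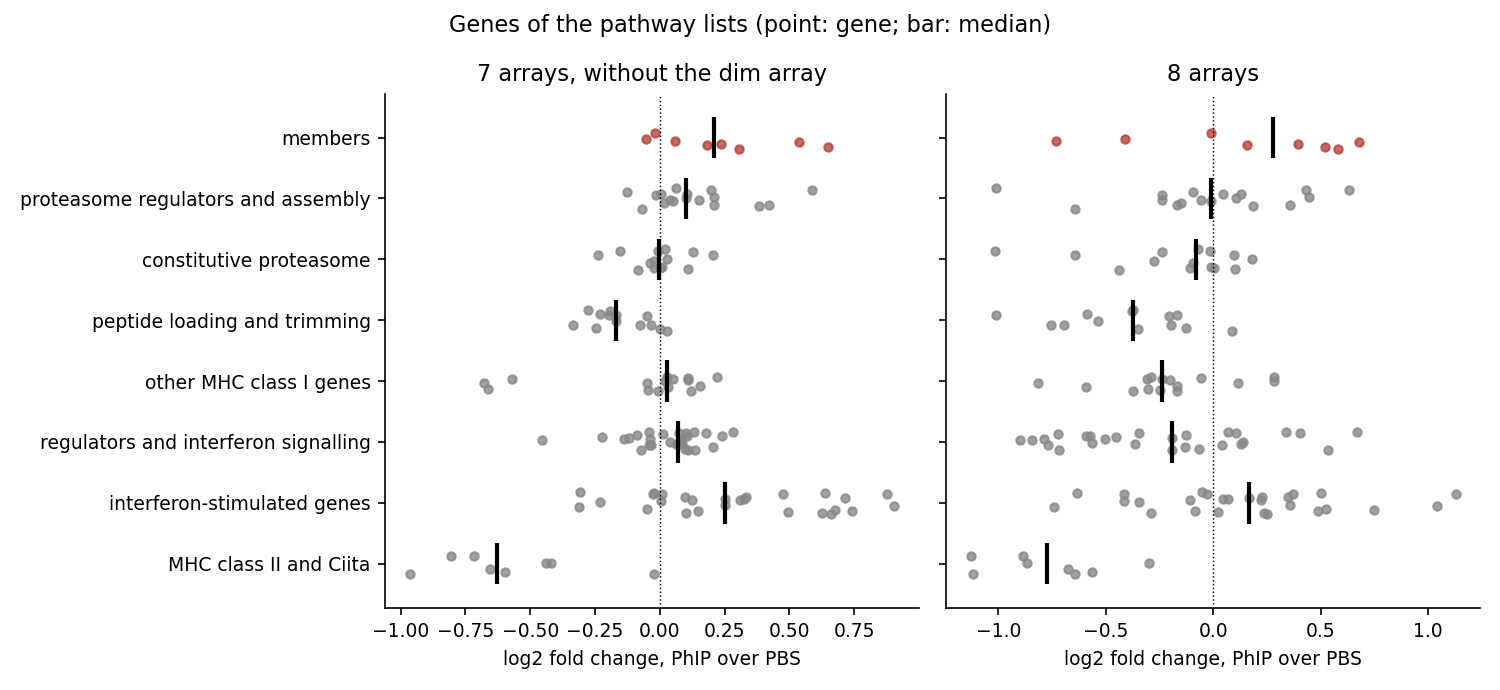
Log2 fold change of PhIP over PBS (x axis) for the tested genes of the set (red, top row) and of 7 related lists (grey), with 7 arrays (left) and 8 arrays (right); points are genes and bars list medians. The set has a median of 0.21 with 7 arrays and 0.28 with 8, interferon-stimulated genes 0.25 and 0.17, peptide loading factors -0.17 and -0.37, and class II genes -0.63 and -0.77.

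Markers of the cell types that a scrape of colon could hold were read beside these lists. Of 17 epithelial markers 8 were tested, and Krt20, Vil1, Cdx1, Cdx2 and Car4 were found on no array, in either group, so the label rests on the keratins Krt8, Krt18 and Krt19, Epcam, Cdh1 and the others tested. The summed normalized intensity of the epithelial markers was 44745 on the dim array and 42473 to 46393 in the other PhIP mice, against 35468 to 39492 in the PBS mice. Most of each epithelial sum came from Krt18, Krt8, Krt19 and Cdh1. Of the 8 tested, 4 had a fold change above 0 with 8 arrays (median -0.02) and 6 with 7 (median 0.09). Krt18 had a log2 fold change of 0.49 ± 0.14 with 8 arrays and 0.43 ± 0.08 (adjusted p = 0.219 by limma) with 7, and Krt8 0.37 ± 0.12 and 0.35 ± 0.09. Neither Krt18 nor Krt8 overlapped between groups, as for 3.67% of all features with PhIP higher with 8 arrays and 5.98% with 7. Krt19 had -0.15 ± 0.29 with 8 arrays and 0.08 ± 0.08 with 7. Cdh1 had 0.23 ± 0.24 and 0.05 ± 0.12, and Epcam -0.10 ± 0.26 and 0.10 ± 0.09. The stem cell marker Lgr5 had -0.66 ± 0.25 and -0.61 ± 0.26, the floor being reached in 3 of the 5 PhIP mice, and the surface colonocyte transporter Slc26a3, at the floor in 1 PhIP mouse, -0.97 ± 0.86 and -0.25 ± 0.22. Fibroblast and smooth muscle markers were below 0 in 12 of 12 with 8 and with 7 arrays, where 50.8% and 55.3% of all features were above 0. Their median was -0.55 with 8 arrays and -0.30 with 7, and sizes differed widely. With 7 arrays, Col3a1 had a log2 fold change of -1.35 ± 0.31 and Col1a1 -1.29 ± 0.32, while Dcn had -0.07 ± 0.09 and Myh11 -0.05 ± 0.10. The summed intensity of the fibroblast and smooth muscle markers was 27042 on the dim array and 44069 to 51748 in the other PhIP mice, against 52823 to 67774 in the PBS mice. T and NK cell markers had 4 of 8 above 0, and sums of 3280 on the dim array and 3286 to 4056 in the other PhIP mice, against 3535 to 3918 in the PBS mice. Most of each T and NK sum came from Cd8b1. It read 11.25 on the dim array and 11.53 to 11.85 in the other PhIP mice, against 11.64 to 11.81 in the PBS mice. Of these markers, Cd3d, Cd5, Gzma, Gzmb, Prf1 and Ncr1 were found on no array. Myeloid markers had 6 of 14 above 0 and 8 below, with sums of 24274 on the dim array and 8254 to 9492 in the other PhIP mice, against 6966 to 8557 in the PBS mice. Most of each myeloid sum came from Cd163. It read 14.34 on the dim array and 12.45 to 12.74 in the other PhIP mice, against 11.98 to 12.36 in the PBS mice. Ptprc and S100a9 were found on no array. The B cell markers tested were 2 of 11, the endothelial markers 8 of 9, and their sums overlapped between the PBS mice and the PhIP mice other than the dim array. The part of these cell types in the values of the class I and immunoproteasome genes was not tested.

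The genes whose pattern was most like the set were found by Pearson correlation with the mean of the 8 tested genes over the 7 arrays. That mean was 9.51, 9.53, 9.59 and 9.82 in PhIP mice 2 to 5, against 9.38, 9.29 and 9.46 in the PBS mice. The 5 named genes most like it were Rps10, a small-subunit ribosomal protein (r = 0.985), Crb3, an apical polarity protein (0.970), the transcription factor Usf1 (0.969), the splicing factor Smndc1 (0.965) and Msto1 (0.962). They were picked for this likeness from all named features, so these values are descriptions, and the points share the same normalization.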

How the data were processed

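Per the labels' protocols, biotin-labelled cRNA made from the RNA of each of 8 mice was hybridized to 1-colour arrays. Scans at 635 nm were quantified in GenePix Pro 4.1.1.4 without normalization, per the file headers. The deposited intensity is linear, each spot's median less its local background, and the deposited score is the spot's flag (found, not found, absent or bad). The deposited series matrix holds log2 values. Set against the scans, 7 of its columns equalled the log2 intensity raised to at least 1 plus a constant per array. Column medians were 4.68 to 5.13, and the origin of the constants is unknown.

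Here the intensities of the 35078 mouse probes were quantile normalized, raised to a floor of 21.25 (percentile 5 of found normalized values; 23.7 with 7 arrays) and put on the log2 scale. Probes found on at least 3 arrays were tested, 23 flagged bad were left out, and the brightest probe stood for each gene. RefSeq names (GRCm38.p6) gave 1 symbol to 23071 probes and none to 12007. This left 15854 features, 10951 of them named. PhIP and PBS mice were grouped by sample title and compared with limma 3.58.1 in R 4.3.3 (lmFit, eBayes with a trend, 2-sided) after Benjamini-Hochberg adjustment, at 0.05. Only the limma fit was tested on simulated data, and the reading, normalization, floor and probe choice were not. The number of arrays limits the precision.

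The members and lists were chosen with earlier results of these data known. From each related list the text names the 2 genes with the smallest p in each direction with 8 arrays, or fewer of them, plus Psmb5, Psmb6, Psmb7, Irf1, Rfx5 and Ifng; 1 further gene is not reported here. Psme1, Psme2, Psmc5, Psmd4, Cd8b1, Dcn, Myh11, Krt19, Cdh1 and Epcam fall outside this rule, having been picked with their values in view. The 5 genes most like the set over 7 arrays are named as well. Alternatives numbered 36, of which 24 were planned; use of the authors' matrix through the same normalization and combinations with the dim array left out were chosen after seeing the data.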

Additional observations from a re-analysis of the deposited data

Results flagged for a closer look

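Among the 8 tested genes and the spots carrying the B2m accession, 3 values in the PhIP group of 5 lay further from the rest than the critical value of Dixon's test, which chance does in about 1 group in 20. All 3 came from the dim array. Psmb10 was 11.559 there, against 10.07 to 10.36 in the other PhIP mice. Tapbp was 4.4094, the floor, against 7.92 to 8.60. The spots carrying the B2m accession had a median difference of -2.788 from the PBS mean, against -0.08 to 0.04.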

How the results depend on the processing

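In all 36 alternatives, 0 of the 8 tested genes passed in either direction, and the smallest adjusted p was 0.127 (limma, Psmb8 without PhIP mouse 1 and PBS mouse 3). By the probe that stands for each gene, or the mean of its probes where that was the setting, the log2 fold changes of Psmb10 (0.02 to 1.19), Psmb8 (0.10 to 1.14), Psmb9 (0.06 to 0.36), Tap1 (0.32 to 0.77) and Tap2 (0.11 to 0.57) stayed above 0 in all 36. With every probe a feature, 7 of 11 member probes were above 0, and 1 of the other Psmb8 probes was at -0.41. The cause of the differences below was not tested. B2m changed sign to 0.14 in the authors' matrix as deposited, 0.10 in that matrix through the same normalization, 0.23 within the arrays not re-dipped, and, without PhIP mouse 1, 0.0660 with the slide range as a block or within the shared slide range. H2-K1 changed sign to 0.39 with 75th-percentile scaling, 0.0394 with array weights, 0.0725 in the authors' matrix as deposited and 0.11 within the re-dipped arrays. Tapbp changed sign to 0.10 and 0.0650 in the authors' matrix as deposited and renormalized, 0.49 within the arrays not re-dipped, and, without PhIP mouse 1, 0.34 with the slide range as a block or within it and 0.00778 with re-dipping as a block. Scaling by the 75th percentile moved the median of all features to 0.12, and that of the members to 0.46. Leaving out 1 array gave -0.64 to -0.05 for B2m, -0.13 to 0.14 for H2-K1 and -0.97 to 0.06 for Tapbp. Leaving out PhIP mouse 1 and another array gave -0.24 to 0.15, -0.14 to 0.13 and -0.08 to 0.21.

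Over all features 2 rose and 0 fell with 8 arrays. Counts that rose were 0 with 75th-percentile scaling, the mean of a gene's probes, the slide block and within the re-dipped or not re-dipped arrays, 1 with no filter, every probe a feature, no trend, the re-dipping block or within the shared slide range, 10 with array weights, and 13 and 9 in the authors' matrix as deposited and renormalized. Counts that fell were 1 with no filter or array weights, 7 and 2 in the authors' matrix, 2 with the slide block and 9 within the shared slide range. Leaving out arrays gave 0 to 8 that rose and 0 to 4 that fell. Without PhIP mouse 1, the slide block gave 6 and 16, and the shared slide range 5 and 14. Mouse numbers are shared between groups. With 8 arrays, the deviations of same-numbered mice from their group means had r = -0.09, 0.19 and -0.12 for numbers 1 to 3. The dim array is number 1 and enters the PhIP mean, so these values cannot decide whether same-numbered mice share more than a number. With the number as a replicate block, 0 rose and 0 fell with 8 or 7 arrays. Within the shared slide range the lone PBS mouse is assumed to vary like the PhIP mice.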
